A study of Mus musculus with 3 samples.

Results

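The genes described here are 37 genes of the endoplasmic reticulum (ER) folding machinery and of the unfolded protein response, followed over the first days of Gata6 overexpression in mouse embryonic stem (ES) cells. They were taken from a fixed list of names, 37 of 18193 genes that had a probe set of their own on the array, and fall into 14 chaperones and folding factors, 10 genes of ER-associated degradation and 13 stress sensors, transcription factors and their regulators. All 37 lay above the signal floor of 54.0 on each of the 3 arrays, the lowest value being 84.4. The samples were ES cells at day 0 (labelled the control), day 1 and day 2 of overexpression of Gata6, a transcription factor of the primitive endoderm, with 1 array per day. Per the series' design text the cells had been engineered so that Gata6 responds to dex, read here as the glucocorticoid dexamethasone. The sources used here do not give the ES cell line, the dose of dex or whether day 0 cells carried the construct, so Gata6, dex, culture time and cell population cannot be told apart.

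The ER is where secreted and membrane proteins fold, and its chaperones, disulfide isomerases and lectins hold new chains until they are folded. When unfolded chains accumulate, the sensors Ern1 (Ire1), Eif2ak3 (Perk) and Atf6 signal to the nucleus: Ern1 splices the Xbp1 transcript, Atf6 is cut free in the Golgi and enters the nucleus, and Eif2ak3 slows translation while favouring that of Atf4. Atf6 and spliced Xbp1 are known for driving chaperone and degradation genes, and Atf4 for driving amino acid and stress genes such as Ddit3 (Chop) and Trib3. Parietal and visceral endoderm, the layers that form from the primitive endoderm, are secretory tissues. The arrays measured transcript levels only; splicing of Xbp1, cleavage of Atf6, translation and phosphorylation were not measured.

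The labels were checked first. Gata6 had a signal of 110 on day 0, 5574 on day 1 and 6070 on day 2. Of 9 ES cell markers, 8 were at least 2-fold lower on day 2, Dppa5a being the exception. The summed signal of all 9 was 125959, 55384 and 47283 on the 3 days. Dppa5a alone made up 40759, 37051 and 36734 of it, so the sum understates the difference in the other 8. All 9 primitive endoderm markers with a probe set of their own were at least 2-fold higher on day 1 and day 2, and their summed signal was 4187, 73426 and 119543. Of 12 markers of fibroblasts, which can be present as feeder cells, Col1a1, Col3a1, Postn, Lum and Dcn were under the floor on each array. The other 7 were above it on at least 1 array. On day 2, of 6 compared, Thy1 (421, 75.4 and 50.5) was at least 2-fold lower. Twist1 (7.00, 88.9 and 113, day 0 under the floor) was at least 2-fold higher, and 4 were within 2-fold. The summed signal of the 12 was 950, 587 and 764. The part of these marker differences in the results that follow was not tested. In such bulk samples, fewer cells of a type and less RNA per cell cannot be told apart.

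Each value is the linear signal of 1 probe set, and a gene counted as higher or lower if its signal on 1 array was 2-fold or more that on the other. With 1 array per day there is no test and no p-value. Each log2 ratio is given with a measurement SD, taken from how far 2 probe sets of a gene differed on the same arrays, which was 0.13 for signals over 5000, 0.21 from 1000 to 5000, 0.37 from 200 to 1000 and 0.49 under 200. The class was set by the mean log2 signal of the 2 arrays compared, so 1 of them can be dimmer than its class. The SD does not hold the variation between cultures, and precision is limited by how few arrays there are.

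Most of these ER genes had higher signals with time. On day 1, 9 of the 37 genes were at least 2-fold higher than on day 0 and 1 was lower, where 6.00% of all 13602 compared genes were higher and 6.58% lower. By day 2, 18 of the 37 were higher and 2 lower, against 11.0% and 10.1% of 13865 genes. The median log2 ratio of the members was 0.60 on day 1 and 0.90 on day 2, beside -0.04 and -0.05 for all genes. The share of higher genes was nearly the same among the 8589 genes with a mean signal over 200, at 11.8% on day 2. Day 1 and day 2 were read against the same day 0 array, so the 2 sets of ratios are not independent. Past 2 measurement SDs, 19 members were higher and 3 lower on day 1, against 10.9% and 12.2% of all genes. On day 2, 26 were higher and 2 lower, against 17.0% and 19.5%. Between day 1 and day 2 the members differed less, with 10 higher and 2 lower, against 11.4% and 10.6%.

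**Figure D1:**
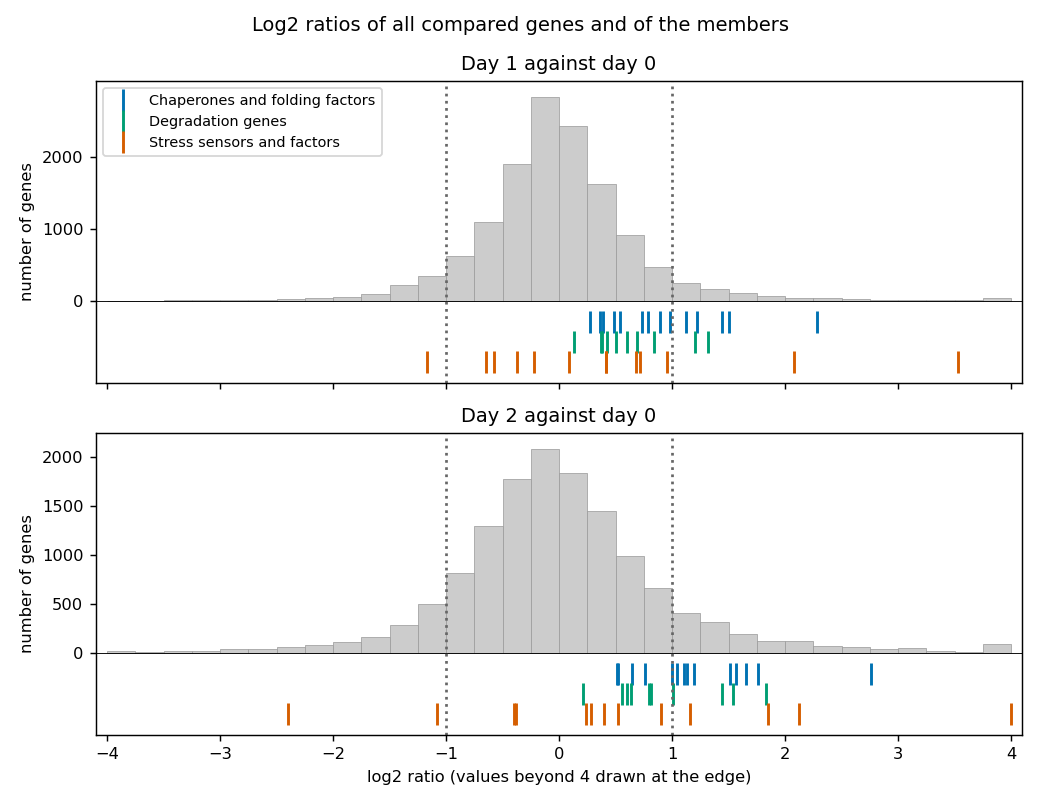
Histograms of the log2 ratio of all compared genes, with the number of genes on the vertical axis; ticks under each histogram mark the 14 chaperones, 10 degradation genes and 13 stress genes, and dotted lines mark 2-fold. The chaperones and degradation genes lie to the right of 0 in both comparisons, while stress genes lie on both sides; values beyond 4, such as Creb3l2 on day 2, are drawn at the edge.

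The 3 classes differed in pattern. All 14 chaperones and all 10 degradation genes had ratios above 1 on both days, as did 46.0% of all genes on day 1 and 46.7% on day 2. The median log2 ratio on day 2 was 1.12 for the chaperones and 0.81 for the degradation genes. The 13 stress sensors and factors spread from -2.40 to 4.44 around a median of 0.40. The signal was higher at each step from day 0 to day 1 to day 2 for 29 of the 37 members, including all 14 chaperones and 9 of 10 degradation genes, where 24.4% of 10914 genes above the floor on each array did so. It was lower at each step for Atf4, Trib3 and Mbtps2, where 30.4% of genes were. These orders count any difference, however small. From day 1 to day 2, 9 of 14 chaperones and 8 of 10 degradation genes were within 2 measurement SDs, so a second rise is not shown for each gene. Mbtps2 was within 2 measurement SDs at both steps. From day 1 to day 2 alone, 31 of the 37 had a ratio above 1, against 49.4% of all genes.

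**Figure D2:**
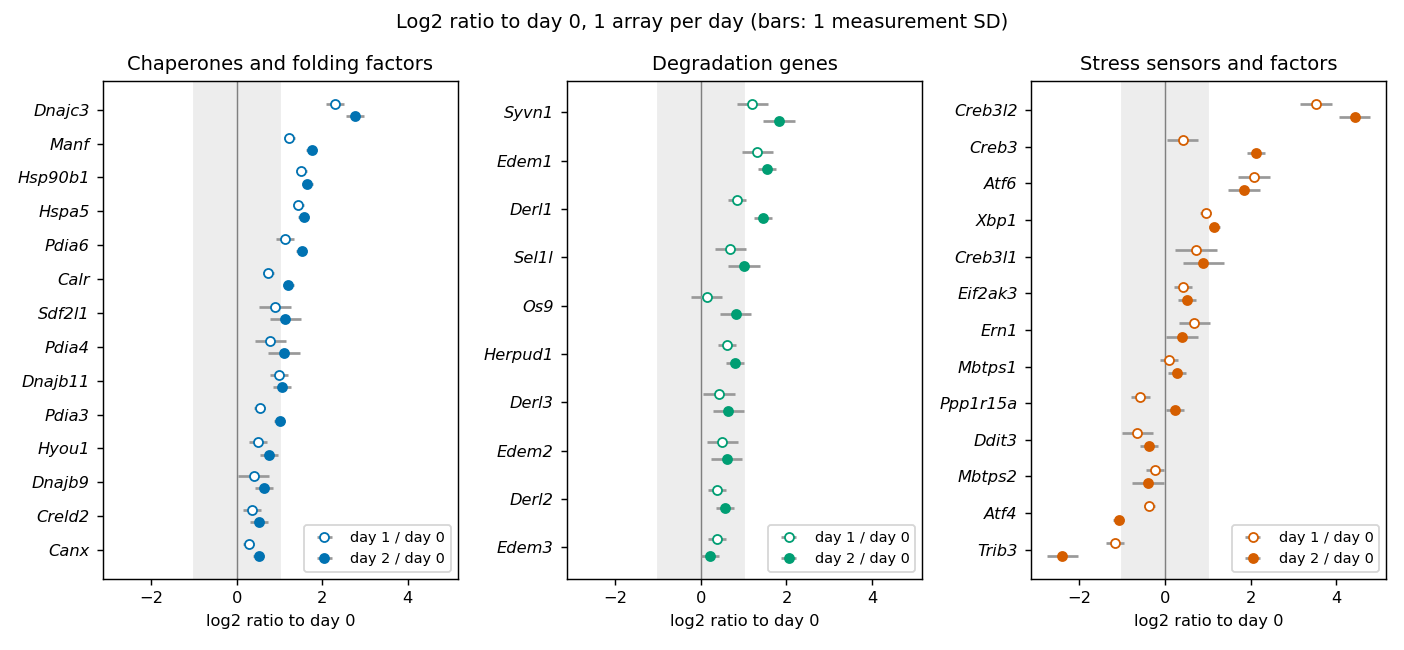
Log2 ratio to day 0 of each of the 37 genes, with open points for day 1, filled points for day 2 and bars of 1 measurement SD; the grey band spans less than 2-fold. Chaperones run from 0.51 (Canx) to 2.76 (Dnajc3) on day 2, degradation genes from 0.21 (Edem3) to 1.83 (Syvn1) and stress genes from -2.40 (Trib3) to 4.44 (Creb3l2).

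Among chaperones, 5 of 14 were at least 2-fold higher on day 1 and 10 on day 2, and 0 were lower. Of all genes, 6.00% were higher and 6.58% lower on day 1, and 11.0% and 10.1% on day 2. All 14 exceeded day 0 by more than 2 measurement SDs on day 2. Hspa5 (BiP), the Hsp70 of the ER that also holds the stress sensors inactive, had signals of 8106 on day 0, 21949 on day 1 and 24014 on day 2. On this probe set both later arrays were above day 0 and close to each other, at log2 ratios of 1.44 ± 0.13 and 1.57 ± 0.13, or 2.71-fold and 2.96-fold. The other Hspa5 probe sets differed in size and timing: one gave 1.48 and 1.86, and the dimmest, at 679, 803 and 1150, gave 0.24 and 0.76. Averaging the probe sets moved Hspa5 to 1.05 on day 1 and 1.40 on day 2. Hsp90b1 (Grp94), the Hsp90 of the ER, had a similar shape on the probe set used, with 4714, 13356 and 14785 on the 3 days and a 3.14-fold difference on day 2 (log2 ratio 1.65 ± 0.13). Its other probe set gave 1.03 on day 1 and 1.40 on day 2, so for both genes the share of the day 2 difference present on day 1 depended on the probe set.

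Dnajc3 (p58IPK), an Hsp40 co-chaperone of Hspa5 that also restrains Eif2ak3, had the highest ratio of the chaperones. It had signals of 572, 2786 and 3879, which is 4.88-fold higher on day 1 and 6.79-fold on day 2 (log2 ratio 2.76 ± 0.21). Its 5 probe sets ranged from 2.29 to 2.77 on day 2, so all of them were high. Dnajb11 (ERdj3), another co-chaperone of Hspa5, had 1089, 2153 and 2249, a difference reached almost fully on day 1 (log2 ratios 0.98 ± 0.21 and 1.05 ± 0.21). Dnajb9 (ERdj4), a co-chaperone that aids degradation and represses Ern1, stayed within 2-fold at 873, 1144 and 1361. Hyou1 (Grp170), the nucleotide exchange factor of Hspa5, did too, at 1176, 1644 and 1991.

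The disulfide isomerases, which form and reshuffle disulfide bonds, and the lectin chaperones, which hold glycoproteins, were higher on both later days. Pdia6 had signals of 3320, 7241 and 9487, 2.86-fold higher on day 2 (log2 ratio 1.51 ± 0.13); a second, dimmer Pdia6 probe set, under the floor on day 0, had log2 ratios of 1.45 on day 1 and 0.76 on day 2 and so was lower on day 2 than on day 1. Pdia3 (ERp57), which works with the lectins, had 6288, 9113 and 12592 and just reached 2-fold on day 2 (log2 ratio 1.00 ± 0.13). Pdia4 (ERp72) was dimmer, and so less precise, with 195, 336 and 419 and a log2 ratio of 1.10 ± 0.37. Calr, the soluble lectin chaperone, had 8847, 14709 and 20275 and stood 2.29-fold higher on day 2 (log2 ratio 1.20 ± 0.13). Canx, its membrane-bound relative, had 7216, 8745 and 10289, a log2 ratio of 0.51 ± 0.13 that is over the measurement error but under 2-fold.

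The other ER proteins of the class are known as stress-induced, and their ratios were unequal. Manf, a neurotrophic factor-like protein that resides in the ER and can be secreted, had signals of 3993, 9316 and 13481, 3.38-fold higher on day 2 (log2 ratio 1.76 ± 0.13). Sdf2l1, a partner of Dnajb11, had 327, 605 and 717, 2.19-fold higher (log2 ratio 1.13 ± 0.37). Creld2 had 1738, 2235 and 2489, under 2-fold (log2 ratio 0.52 ± 0.21). Between day 1 and day 2, 0 of the 14 chaperones differed 2-fold, with a median log2 ratio of 0.26. Of all genes, 5.61% were higher and 3.67% lower there, so a count of 0 among 14 is near those shares.

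**Figure D3:**
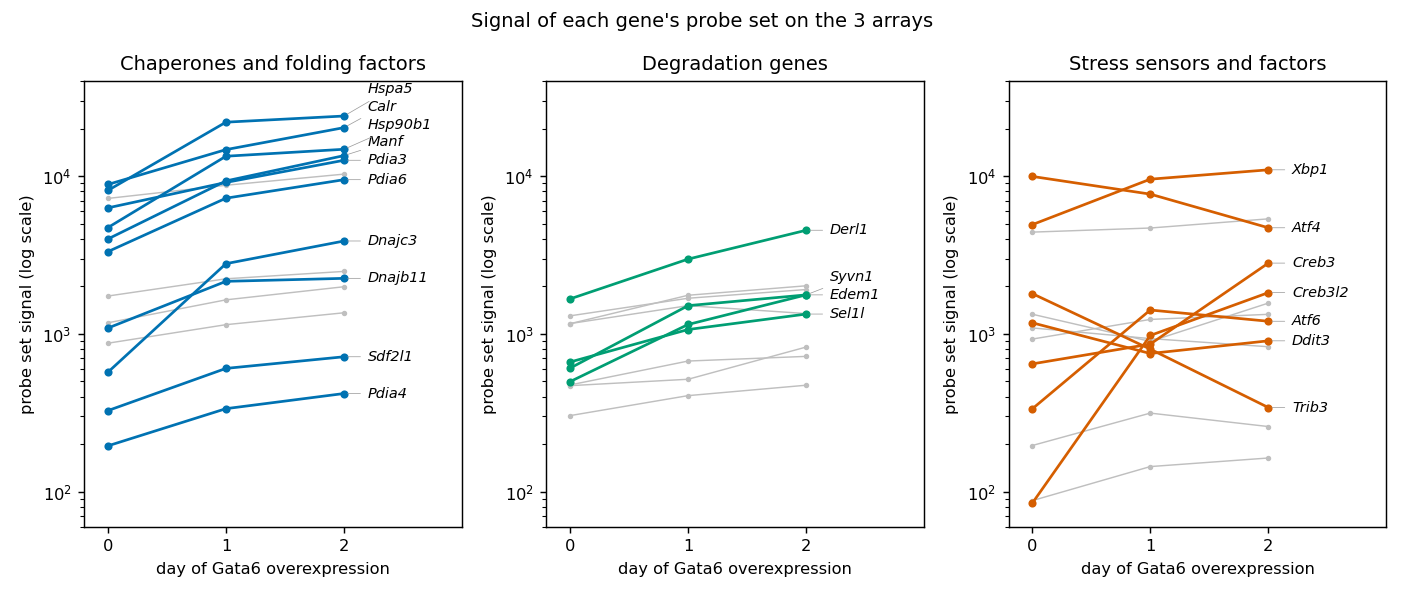
Probe set signal on a log scale against day, 1 line per gene; coloured, labelled lines are genes at least 2-fold different between any 2 days and Ddit3, and grey lines are the other members. On the probe sets drawn, Hspa5 and Hsp90b1 are steep to day 1 and flat after it, Creb3 is flat to day 1 and steep after it, and Atf4 and Trib3 slope down.

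The promoters of some of these chaperones carry the ER stress response element (ERSE). Atf6 and Xbp1 are known to bind it together with the CCAAT factor NF-Y. It was searched as CCAAT, then 9 bases of any kind, then CCACG, on both strands of the 300 bases from 250 before to 50 after the start of each gene in RefSeq (GRCm38.p6), which were at hand for 32 of the 37 members. It was present in 7 of 12 chaperone genes, in 2 of 9 degradation genes, Syvn1 and Derl3, and in 0 of 11 stress genes. Of 27025 genes, 0.137% held it. The members were listed as known genes of this response, so these shares are a description and no independent support. The windows of all 9 genes are shown because they carry the same 19-base arrangement. These genes had ratios above 1 on both days, as did all chaperones and degradation genes, with or without the element. Of the 9, Canx, Creld2 and Derl3 stayed under 2-fold. Each window is read along the gene, with the fixed bases of the element in capitals. Where the element lies in the reverse direction it reads CGTGG before ATTGG.
Hspa5: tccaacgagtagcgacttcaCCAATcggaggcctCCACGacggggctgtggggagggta
Hsp90b1 distal: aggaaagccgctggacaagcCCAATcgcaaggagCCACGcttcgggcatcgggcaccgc
Hsp90b1 proximal: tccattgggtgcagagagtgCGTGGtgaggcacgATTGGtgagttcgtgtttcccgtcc
Calr: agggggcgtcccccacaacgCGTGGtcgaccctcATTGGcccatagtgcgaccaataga
Canx: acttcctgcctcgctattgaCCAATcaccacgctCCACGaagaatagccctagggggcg
Pdia6: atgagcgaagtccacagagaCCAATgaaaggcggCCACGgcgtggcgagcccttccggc
Dnajc3: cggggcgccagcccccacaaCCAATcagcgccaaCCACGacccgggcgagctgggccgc
Creld2: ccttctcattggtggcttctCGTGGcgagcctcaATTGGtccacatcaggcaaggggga
Syvn1: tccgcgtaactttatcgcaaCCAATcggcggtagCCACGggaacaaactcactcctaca
Derl3: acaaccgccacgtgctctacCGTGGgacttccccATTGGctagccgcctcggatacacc

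All of these lie upstream of the annotated start of the gene. In GRCm38.p6 the Hspa5 window is chr2:34772005-34772063 on the plus strand, with the element from base -65 to -47 counted from the start. The Hsp90b1 windows are chr10:86705618-86705676 and chr10:86705513-86705571 on the minus strand. Calr is at chr8:84847055-84847113 and Canx at chr11:50325780-50325838, both on the minus strand. On the plus strand, Pdia6 is at chr12:17266471-17266529, Dnajc3 at chr14:118937807-118937865, Creld2 at chr15:88819500-88819558, Syvn1 at chr19:6046512-6046570 and Derl3 at chr10:75893222-75893280.

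Genes with the element had ratios of many sizes. The 7 chaperone genes with it had a median day 2 log2 ratio of 1.51, from 0.51 (Canx) to 2.76 (Dnajc3). The 5 with a window but without it had a median of 1.05, from 0.64 to 1.13. These 5 include Dnajb11, which holds the related element given next. The chaperones without a window at hand, Manf with a ratio of 1.76 and Hyou1 with 0.76, are in neither group. Whether the element goes with the size of the ratio was not tested. A related element, ERSE-II, searched as ATTGG, 1 base of any kind and CCACG, was found in Herpud1 and, just after the start, in Dnajb11, and in 0.0444% of all genes. The core of the Xbp1 element, TGACGTGG, was in 0 of the 32 members and in 0.714% of all genes. A match describes these letters only, and no match says nothing about binding elsewhere.

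Degradation genes were higher by smaller amounts than 2-fold on day 1, with 2 exceptions, where 6.00% of all genes passed 2-fold upward. On day 2, 4 of 10 reached 2-fold, against 11.0% of all genes. Syvn1 (Hrd1), the ubiquitin ligase at the centre of ER-associated degradation, had signals of 498, 1148 and 1768, 2.30-fold higher on day 1 and 3.55-fold on day 2 (log2 ratio 1.83 ± 0.37). Its other probe set was lower in ratio, at 0.84 on day 1 and 1.29 on day 2, so the day 1 difference is under 2-fold there. Sel1l, the adaptor that holds Syvn1 in its complex, had 664, 1066 and 1336 and only just reached 2-fold on day 2 (log2 ratio 1.01 ± 0.37; 0.84 to 1.11 over 5 probe sets).

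Edem1, which trims mannose from misfolded glycoproteins and so marks them for disposal, had 607, 1511 and 1767, 2.91-fold higher on day 2 (log2 ratio 1.54 ± 0.21). Its relatives differed from day 0 by less: Edem2 had 475, 673 and 721, and Edem3 had 1163, 1510 and 1346. Edem3 was the only degradation gene that was not higher at each step, and both genes were within 2 measurement SDs of day 0 on day 2. Derl1, a channel protein that helps move clients out of the ER, had 1666, 2979 and 4537, 2.72-fold higher on day 2 (log2 ratio 1.45 ± 0.21). All 4 Derl1 probe sets lay between 1.27 and 1.45, whereas Derl2 (1302, 1683 and 1911) and Derl3 (304, 407 and 473) stayed under 2-fold.

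Herpud1, a membrane protein of the Syvn1 complex, had 1160, 1758 and 2018 (log2 ratio 0.80 ± 0.21 on day 2). Os9, a lectin that delivers glycoproteins to Sel1l, had 470, 516 and 826 (log2 ratio 0.13 ± 0.37 on day 1 and 0.81 ± 0.37 on day 2). The dimmer Os9 probe set gave 0.73 on day 1 and 1.20 on day 2, so neither the timing nor the side of 2-fold is settled for Os9. On the probe sets used, Herpud1 and Os9 were above day 0 on day 2 by more than 2 measurement SDs and by less than 2-fold.

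The stress sensors and factors went in both directions. On day 2, 4 of 13 were at least 2-fold higher (Xbp1, Atf6, Creb3 and Creb3l2) and 2 were lower (Atf4 and Trib3). Of all genes, 11.0% were higher and 10.1% lower, so with 13 genes the count of 2 lower is near that share. Of the sensors, Atf6 had signals of 335, 1417 and 1203, 4.23-fold higher on day 1 and 3.59-fold on day 2 (log2 ratios 2.08 ± 0.37 and 1.85 ± 0.37). Its 3 probe sets ranged from 1.56 to 1.85 on day 2, and all of them were above day 0 on both later days. The sensor kinases stayed within 2-fold: Eif2ak3 had 927, 1235 and 1331 (log2 ratio 0.52 ± 0.21 on day 2). Ern1 had 196, 315 and 259, and its 4 probe sets above the floor disagreed in sign on both days.

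Xbp1, the transcript that Ern1 splices, had signals of 4920, 9555 and 10955, 1.94-fold higher on day 1 and 2.23-fold on day 2 (log2 ratio 1.15 ± 0.13). Its 4 probe sets ranged from 0.67 to 1.32 on day 2, and the values do not separate spliced from unspliced Xbp1. Mbtps1 and Mbtps2, the Golgi proteases that release Atf6 and its relatives, stayed within 2-fold on the probe sets used. Mbtps1 had 4414, 4687 and 5358, and Mbtps2 had 1091, 934 and 829. The dimmest Mbtps1 probe set had 79.2, 98.5 and 192, a log2 ratio of 1.28 on day 2.

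The widest difference of all members belonged to Creb3l2 (BBF2H7), an ER-anchored transcription factor related to Atf6 that is known for raising the secretory capacity of cartilage cells. It had signals of 84.4, 978 and 1826, which is 11.6-fold higher on day 1 and 21.6-fold on day 2 (log2 ratio 4.44 ± 0.37). The second Creb3l2 probe set had 130, 682 and 1267, a log2 ratio of 3.29, so both were low on day 0 and high after it. The probe sets differ by more than the SD given, and day 0 was dim, so the size is less certain than that SD. Under the alternative settings the day 2 log2 ratio ran from 3.65 to 4.45. On the probe set used it ranked 54 from the top among 13865 genes on day 2. Creb3 (Luman), another anchored factor of this family, was late: it had 646, 862 and 2810, with a log2 ratio of 0.42 ± 0.37 on day 1 and 2.12 ± 0.21 on day 2. It was the 1 member at least 2-fold higher between day 1 and day 2 (3.26-fold, where 5.61% of genes were higher), and its 4 probe sets all gave over 2-fold in that comparison, from 1.20 to 1.70 in log2 ratio, the dimmest of them with day 1 under the floor. Creb3l1 (OASIS), the third of the family here, was dim at 87.8, 144 and 164 and within 2-fold.

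Atf4 and Trib3 were lower where the chaperones were higher. Atf4, the factor made when Eif2ak3 slows translation, had 9952, 7685 and 4704, 2.12-fold lower on day 2 (log2 ratio -1.08 ± 0.13; -1.17 in the second probe set above the floor). It was under 2-fold with cyclic loess scaling and with probe sets averaged. Trib3, a pseudokinase that is a known target of Atf4 and Ddit3, had 1803, 801 and 342, 2.25-fold lower on day 1 and 5.28-fold lower on day 2 (log2 ratio -2.40 ± 0.37). Its other probe set gave -2.43, and Trib3 was also the 1 member at least 2-fold lower between day 1 and day 2 (2.34-fold, where 3.67% of genes were lower), though that probe set gave -0.79 there.

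Ddit3 (Chop), the factor that marks prolonged ER stress, was not higher on its brighter probe set, with 1177, 752 and 904 (log2 ratios -0.65 ± 0.37 and -0.38 ± 0.21). A dimmer Ddit3 probe set had 182, 369 and 264, so the probe sets disagreed and the direction is not settled. Ppp1r15a (Gadd34), the phosphatase subunit that restores translation, was lower on day 1 and not on day 2, under 2-fold each time, with 1333, 896 and 1568 (log2 ratios -0.57 ± 0.21 and 0.23 ± 0.21).

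**Figure D4:**
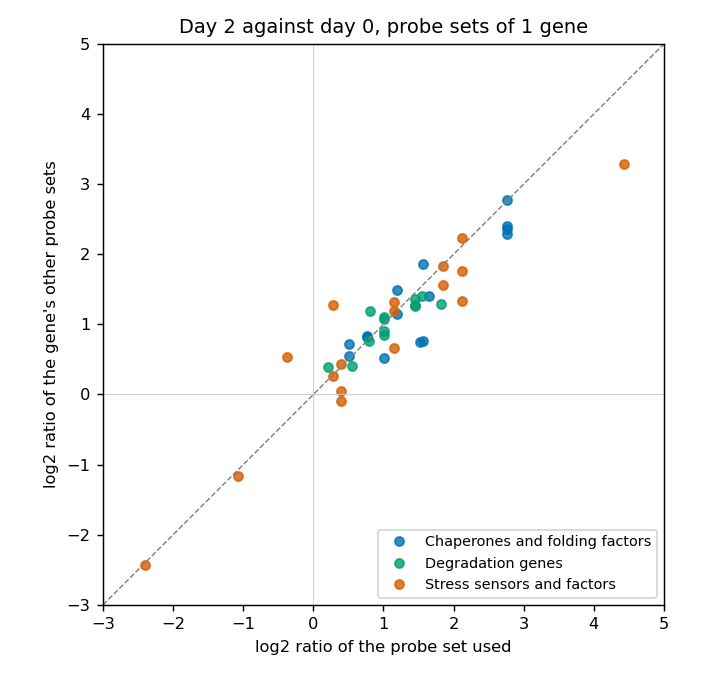
Log2 ratio on day 2 against day 0 of 45 further probe sets above the floor, plotted against that of the probe set used for the same gene; the dashed line marks equality. Of the 45, 43 have the same sign as the probe set used, with a median absolute difference of 0.18, and Creb3l2 and Trib3 are at the ends in both.

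Probe sets of 1 gene gave a check within the arrays. Of 25 members with several probe sets above the floor, all probe sets had the same sign for 22 on day 1 and for 23 on day 2, the exceptions being Ddit3 and Ern1 on both days and Creb3 on day 1, where 1 of its probe sets was at the floor on both arrays. Between day 1 and day 2 it was 21 of 25, the exceptions being Pdia6, Atf6, Ddit3 and Ern1. The remaining members rest on 1 probe set above the floor, Manf, Sdf2l1, Pdia4 and Dnajb11 among those called higher.

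Other genes of the same processes, from lists drawn up by function, were counted in the same way, and each count on day 2 stands beside 11.0% of all genes higher and 10.1% lower. In the list of 38 other folding genes, 15 passed 2-fold upward on day 2 and 1 downward, and the median log2 ratio was 0.85. The widest were Txndc11, a thioredoxin-like ER protein, at 134, 917 and 1022, Pdia5, a disulfide isomerase, at 546, 1292 and 3157, and Nucb2, a calcium-binding protein of the secretory pathway, at 138, 479 and 797. All of these were higher on both later days, Txndc11 by a log2 ratio of 1.58 to 2.94 on day 2 depending on the probe set. For 30 other degradation genes the counts were 5 upward and 3 downward, shares near those of all genes, and the median was 0.41. Fbxo2, which recognises glycoproteins in the cytosol, was the widest and was lower (1462, 596 and 194), while the small selenoprotein Selenok (1599, 4748 and 7082) and the signal peptide peptidase H13 (508, 1091 and 2124) were higher. For H13 the probe sets ran from 0.35 to 2.07 in log2 ratio, so its size is not settled.

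Among 23 other stress genes, 6 passed 2-fold upward and 0 downward, around a median log2 ratio of 0.53. Map3k5 (Ask1), a kinase downstream of Ern1, had 129, 682 and 567. The co-chaperone Dnaja4 (31.7, 94.0 and 159) and the liver factor Creb3l3 (28.1, 291 and 139) were dim, with day 0 under the floor. The same held for Bhlha15 (47.2, 277 and 121) and Tnfrsf10b (35.0, 53.8 and 111), the latter under the floor on day 1 too. All of these are among the 6, so most of that count rests on dim genes.

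The amino acid response genes, the Atf4 branch, had a different balance. Of 32 compared, 3 passed 2-fold upward and 6 downward on day 2. The median log2 ratio was -0.20. Nupr1, a stress-induced nuclear protein, had signals of 2198, 800 and 240, 9.14-fold lower on day 2. Chac1, a glutathione-degrading enzyme induced by Atf4, had 2403, 1219 and 347, 6.92-fold lower. Atf3, a factor induced by Atf4 and by other stresses, was higher on day 2, at 217, 266 and 885. Asns, asparagine synthetase and a common readout of this branch, named after its values were seen, was nearly level at 11636, 12626 and 11692. The lower members therefore did not stand for the whole list.

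**Figure D5:**
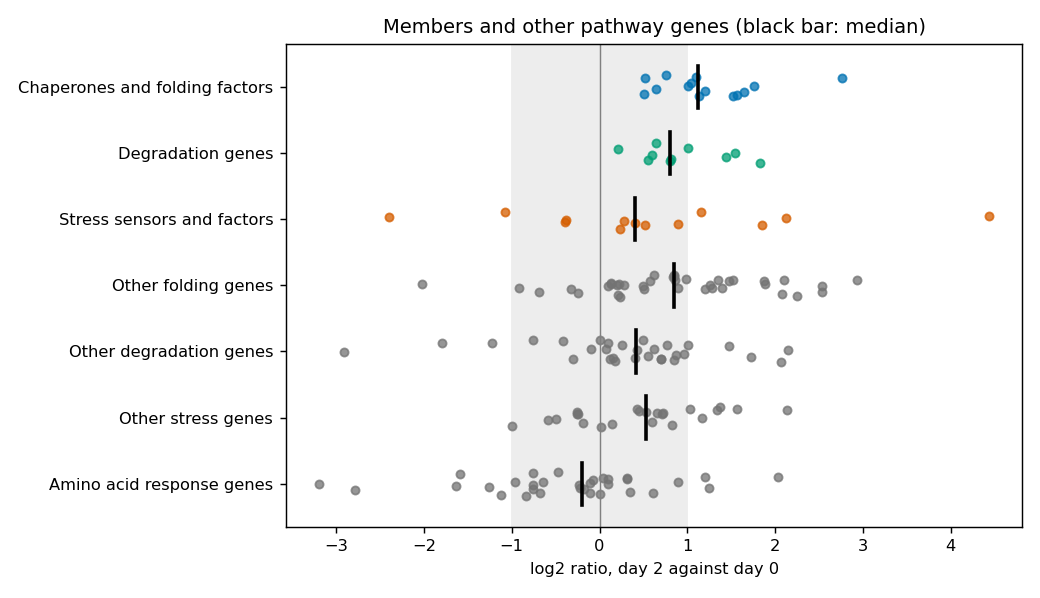
Log2 ratio on day 2 against day 0 of the members by class and of the other pathway genes, 1 point per gene, spread vertically for legibility, with a black bar at each median and a grey band under 2-fold. Medians run from 1.12 for the chaperones to -0.20 for the amino acid response genes.

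The promoters of this branch were searched for the amino acid response element, which Atf4 dimers bind, as TGATGCAA on both strands. It was in 8 of 26 amino acid response genes and in 1.03% of all genes, and in 1 of the 32 members, Herpud1; it was in the windows of neither Trib3 nor Ddit3. The list was drawn up by function as genes of this branch, so these shares are a description and no independent support. Besides Atf3, Slc7a11, Aars, Tars, Vldlr and Pycr1, the 2 genes with the lowest ratios on the list both held it, here in the reverse direction. Only the windows of these 2 are shown.
Nupr1: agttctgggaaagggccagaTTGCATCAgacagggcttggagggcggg
Chac1: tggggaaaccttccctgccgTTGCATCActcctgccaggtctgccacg

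The Nupr1 window is chr7:126625553-126625600 on the minus strand and the Chac1 window chr2:119351029-119351076 on the plus strand, both in GRCm38.p6 and upstream of the start. The element was also present in Atf3, which was higher on day 2, so a match did not go with one direction.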

How the data were processed

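For each probe set the authors deposited a linear intensity value on each of 3 arrays, made with MAS5 per the submitters' processing notes. Its version and scaling target are not given in the sources. Columns were assigned to days through the labels. Here each array was brought to a common 2% trimmed mean, values under the 40th percentile of all values (54.0) were raised to it, and log2 was taken. Probe sets were named from the platform annotation and updated by gene identifier to RefSeq symbols (GRCm38.p6; 34741 of 34945 matched); 932 probe sets with several genes and 9160 with none were left out. Each gene was read from the probe set that is brightest on average over the 3 arrays (log2 scale). Every member is accounted for; those at least 2-fold different in any comparison, and Hspa5, Xbp1, Atf4, Ddit3 and Trib3, are named with all signals, as are the 3 widest genes of each other list on day 2. The members and lists were chosen with earlier results of these data known. No test between days was possible. The measurement SD came from 16098 pairs of probe sets, the brightest and the next of a gene, as the SD of their difference in log2 ratio divided by the square root of 2. The fold calls and this SD were also run on simulated data. There the probe sets of a gene shared the same effect and noise level, so this checked the code and not the SD of these arrays. Alternatives covered the floor, scaling, probe set choice and fold threshold (limma 3.58.1 for quantile and loess scaling; Python 3.11.15). Sequences are from RefSeq.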

Additional observations from a re-analysis of the deposited data

How the results depend on the processing

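No paired analysis was possible because each day has 1 array, and no array could be left out without losing a comparison. The median log2 ratio of the members stayed between 0.53 and 0.68 on day 1 and between 0.77 and 0.90 on day 2 under 9 alternative settings. The chaperone median on day 2 stayed between 1.02 and 1.16. The 9 higher and 1 lower members of day 1 became 19 and 2 at a 1.5-fold threshold and 3 and 0 at a 3-fold one. On day 2 the 18 higher and 2 lower became 7 and 1 at 3-fold. Between the later days, the 1 higher and 1 lower became 6 and 2 at 1.5-fold, and 0 were lower at 3-fold. Without probe sets whose names end in _a_at, _s_at or _x_at, which can match several transcripts or genes, 32 members were left, since Hspa5, Hsp90b1, Calr, Derl3 and Trib3 had none. The higher counts were then 6, 14 and 1 and the lower counts 0, 1 and 0 in the 3 comparisons, with Syvn1 under 2-fold on day 1 (0.84) and Xbp1 on day 2 (0.67). Leaving out only those ending in _s_at or _x_at, an alternative chosen after seeing the data, kept all 37; Trib3 then stood at -0.79 between day 1 and day 2, so 0 were lower there. Atf4 was under 2-fold on day 2 with cyclic loess (-0.92) and with probe sets averaged (-0.75), which left 1 lower member. Averaging also gave the stress genes a median of 0.16 on day 1, and took Pdia3 (0.76) and Pdia4 (0.55) under 2-fold and Os9 (1.00) over it on day 2. Sel1l and Pdia3 stood so near 2-fold that small changes of setting moved them across it. Low signals limit Creb3l1, whose day 2 log2 ratio ranged from 0.17 to 0.90. The causes were not tested.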
